A study of Mus musculus with 3 samples.

Results

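The core transcription factors of the hematopoietic stem cell (HSC) were followed on the 3 arrays of this series. They are the 10 genes Gata2, Runx1, Tal1, Lmo2, Lyl1, Fli1, Erg, Gfi1b, Mecom and Meis1, taken by gene name from the 37074 names on the array. Every probe annotated with one of these names was used, which gave 20 of 56605 probes. Each of 6 genes had 1 probe, whereas Lmo2 had 2, Runx1 had 3, Meis1 had 4 and Mecom had 5.

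Long-term HSCs (LT-HSCs), the bone marrow cells that sustain blood formation over a lifetime, depend on a small circuit of DNA-binding proteins. GATA2, RUNX1, FLI1, ERG and the TAL1 or LYL1 complex built around the bridging protein LMO2 occupy many of the same enhancers, their own included, and so keep each other expressed. MEIS1 and the MECOM proteins are further regulators of stem cell maintenance, and GFI1B is a repressor on which HSC dormancy and the erythroid and megakaryocytic lineages depend.

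LT-HSCs of C57BL/6J mice came from femur and tibia. The AtmsKO mice carried floxed Atm, and the Atmp38dKO mice carried floxed Atm and floxed p38α (Mapk14). Both carried CAG-CreERT2, which is active in most cell types once tamoxifen is given and is meant to delete the floxed alleles. Controls (WT) lacked the Cre transgene and received tamoxifen too. The sample labels state an age of 11 weeks, whereas the series text puts tamoxifen at about 5 weeks and analysis 4 weeks later. The gate in the labels was CD150+CD48-Flt3-CD34- LSK, where LSK stands for lineage-Sca-1+c-Kit+ cells, and the study's methods add CD41-. Cy3-labelled RNA of each genotype was put on 1 array, and the number of mice behind it was not given. There were thus no replicates, no test was possible, and each difference below is between arrays rather than between genotypes.

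The signal is the background-subtracted spot intensity in scanner units. Differences are on the log2 scale, after each array was divided by its own 75th percentile (101.5, 96.2 and 117.8 units on the WT, AtmsKO and Atmp38dKO arrays). The number after ± is the error that the scanner software assigns to a signal, carried into the difference. It was about 10% of the signal of bright probes, or about 0.20 for a log2 difference, and covers no variation between mice. Repeated spots of the same probe had a median SD of 0.0535 on the log2 scale within the WT array. The arrays had 68.9% to 77.7% of probes well above background. As a check of the labels, the Atm probes read 88.8, 16.3 and 49.0 units, and 87.0, 23.9 and 86.5 units, on the WT, AtmsKO and Atmp38dKO arrays. Both Mapk14 probes lay close to WT on the Atmp38dKO array (0.01 and 0.18). Thus Atm was low at both probes on the AtmsKO array only, and nothing in these signals showed the loss of Mapk14. Where the probes lie relative to the floxed exons was not examined here, so that array is called the array labelled Atmp38dKO.

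All 20 probes of the core factors were well above background on all 3 arrays and none was saturated. Between the AtmsKO and WT arrays, no core factor probe was 2-fold higher or lower, where 4.29% of 42937 probes on the array were at least 2-fold higher and 4.74% were at least 2-fold lower, so that a count of 0 among 20 is near the background. The median difference of the 20 probes was 0.05, against 0.0033 over all probes, and 12 probes were higher and 8 lower. Since the RNA came from a sorted population, fewer cells of a type and less RNA per cell cannot be told apart in any of these values. Between the array labelled Atmp38dKO and WT, 1 probe of 20, Mecom probe 3, was at least 2-fold higher and none was 2-fold lower. On the whole array 4.69% of 45520 probes were higher and 5.07% lower by that measure. The median of the 20 probes was -0.0074, against 0.018 over all probes, and 10 were higher and 10 lower. Between both mutant arrays no core factor probe passed 2-fold, beside 4.39% higher and 4.07% lower of 44797 probes. There the median was -0.08, against -0.0023 over all probes, with 6 probes higher and 14 lower. Over probes of at least 100 units on every array, the medians were -0.12 for 16 core factor probes and -0.05 for all. Bright probes in general were thus also lower in that comparison.

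**Figure D1:**
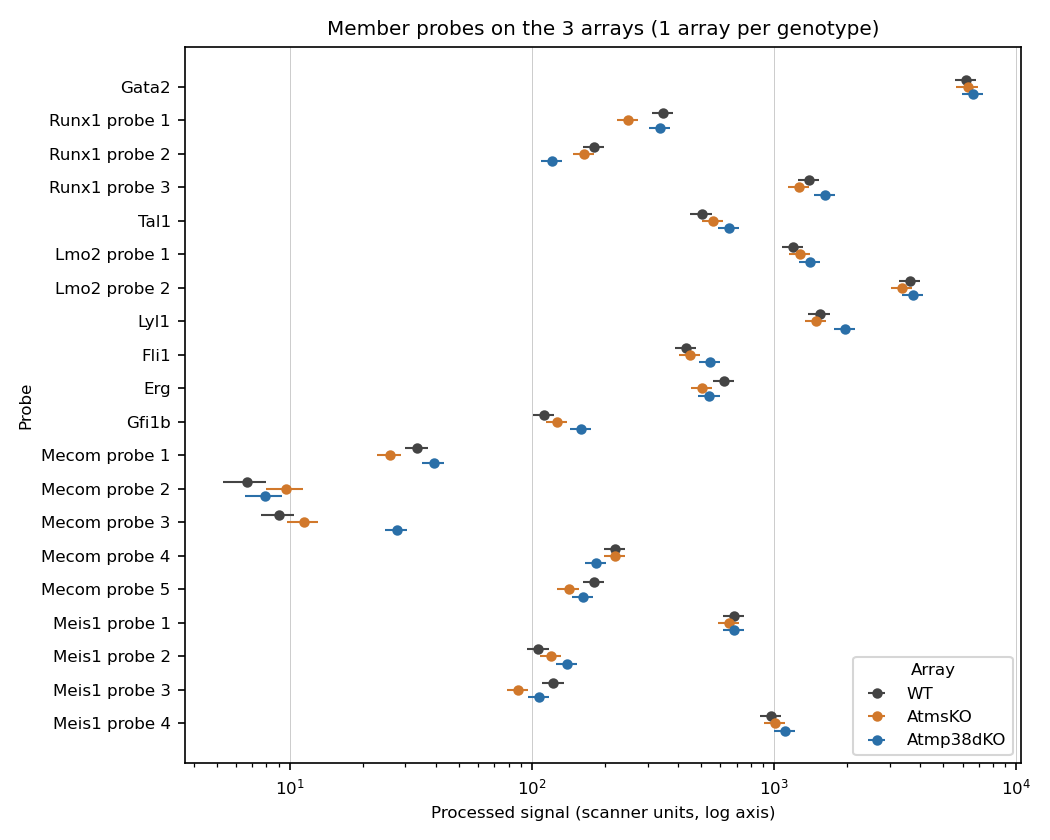
Processed signal of each core factor probe (log axis, scanner units) on the WT, AtmsKO and Atmp38dKO arrays, 1 array each. Bars are the scanner software's error, and probes of a gene are numbered in the direction of transcription. The 3 arrays lie close together at most probes, and Mecom probe 3 stands out with 27.6 units on the array labelled Atmp38dKO against 8.99 on WT.

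GATA2 is the zinc finger factor of HSCs and early progenitors, and HSCs are lost without it. The single Gata2 probe (mm9 chr6:88156835-88156894) read 6179 units on the WT array, 6291 on AtmsKO and 6630 on the array labelled Atmp38dKO. Relative to WT the scaled difference was 0.10 ± 0.20 on AtmsKO and -0.11 ± 0.20 on the array labelled Atmp38dKO. Neither exceeded the error of the scan, whereas the difference between both mutant arrays, -0.22 ± 0.20, was just above it. Among 830 probes of 3000 to 10000 units the median of that comparison was -0.12, and the 5th and 95th percentiles were -0.35 and 0.18. With quantile normalization the Gata2 difference between the mutant arrays was -0.10, within the error.

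TAL1 and LYL1 are related basic helix-loop-helix proteins that pair with E proteins and can replace each other in part in adult HSCs. Tal1 (mm9 chr4:114744219-114744278) read 501.5 units on WT, 559.9 on AtmsKO and 651.7 on the array labelled Atmp38dKO. Its differences from WT were 0.24 ± 0.20 and 0.16 ± 0.20. Lyl1 (mm9 chr8:87228531-87228590) read 1540, 1490 and 1957 units in the same order. Its differences from WT, 0.03 ± 0.20 and 0.13 ± 0.20, were within the error. The highest raw signal of both genes was on the array labelled Atmp38dKO, which was also the array with the highest 75th percentile.

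LMO2 binds no DNA itself and holds the TAL1 or LYL1 complex and GATA2 together. Of its probes, probe 1 is shown here because its 60 bases cover 4714 bases of genome, so it crosses at least 1 intron and reads spliced RNA. It also has an open reading frame over its whole length, as does every other core factor probe except Meis1 probe 2.
Lmo2 probe 1, mm9 chr2:103816341-103821054, + strand: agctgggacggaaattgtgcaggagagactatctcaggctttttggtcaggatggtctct
Lmo2 probe 1 read 1193 units on WT, 1276 on AtmsKO and 1405 on the array labelled Atmp38dKO. Lmo2 probe 2 (mm9 chr2:103821857-103821916) read 3656, 3368 and 3739 units. Relative to WT, probe 1 differed by 0.17 ± 0.20 and 0.02 ± 0.20, and probe 2 by -0.04 ± 0.20 and -0.18 ± 0.20. The spliced probe and the second probe thus lay on opposite sides of 0 in each comparison with WT, by less than the error. Between both mutant arrays the probes read alike, at -0.15 and -0.14.

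FLI1 and ERG are ETS factors that share much of their binding in HSCs, and loss of ERG depletes them. Fli1 (mm9 chr9:32229857-32229916) read 434.1 units on WT, 450.3 on AtmsKO and 544.3 on the array labelled Atmp38dKO, with differences from WT of 0.13 ± 0.20 and 0.11 ± 0.20. Erg (mm9 chr16:95582331-95582390) read 619.1, 504.1 and 540.7 units, with differences of -0.22 ± 0.20 and -0.41 ± 0.20. Both mutant arrays were thus a little above WT for Fli1 and below it for Erg. The Erg difference on the array labelled Atmp38dKO was a fold of 0.753, and it exceeded its error but was not unusual for its signal. Among 4263 probes of 300 to 1000 units, the 5th and 95th percentiles were -0.51 and 0.48.

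GFI1B represses genes of cycling and of other lineages through the LSD1 and CoREST complex. The Gfi1b probe (mm9 chr2:28464982-28465041) read 112.2 units on WT, 127 on AtmsKO and 159.8 on the array labelled Atmp38dKO. It was above WT on both mutant arrays, by 0.26 ± 0.21 and 0.30 ± 0.21. Probes of 100 to 300 units varied more widely, from -0.67 at the 5th to 0.68 at the 95th percentile for the array labelled Atmp38dKO, so that neither value stood apart.

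RUNX1, the DNA-binding part of core binding factor, is made from a distal and a proximal start. Its promoters are shown because the gene has both starts in RefSeq, 128.7 kb apart, and because its probes did not read alike. Each is the stretch of 250 bases before the start, and capitals mark the motifs that were searched for (given with the promoter counts further on).
Runx1 upstream start, GRCm38.p6 chr16:92826075-92826324, - strand: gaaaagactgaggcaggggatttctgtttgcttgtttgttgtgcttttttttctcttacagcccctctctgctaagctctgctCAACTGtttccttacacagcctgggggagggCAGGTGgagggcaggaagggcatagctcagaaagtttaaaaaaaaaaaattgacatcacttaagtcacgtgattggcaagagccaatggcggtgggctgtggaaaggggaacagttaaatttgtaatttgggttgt
Runx1 downstream start, GRCm38.p6 chr16:92697330-92697579, - strand: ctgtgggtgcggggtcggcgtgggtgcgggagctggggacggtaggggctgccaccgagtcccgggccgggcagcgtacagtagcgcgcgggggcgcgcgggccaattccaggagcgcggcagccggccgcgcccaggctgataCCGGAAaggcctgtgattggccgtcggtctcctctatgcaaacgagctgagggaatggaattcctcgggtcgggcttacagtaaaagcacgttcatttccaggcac
The promoter of the upstream start was 45.6% G+C with 2 CpGs, and that of the downstream start was 67.6% G+C with 27 CpGs. The capitals are matches to CAGNTG before the upstream start and to CCGGAA before the downstream start. Of the Runx1 probes, probe 1 (mm9 chr16:92697238-92697297) names 2 RefSeq transcripts, and probe 2 (mm9 chr16:92605785-92605844) and probe 3 (mm9 chr16:92602576-92602635) name 4 each. Which start the transcripts of each probe use was not worked out here, since probes and promoters are placed on different genome builds.

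Runx1 probe 1 read 347.9 units on WT, 249.9 on AtmsKO and 336.7 on the array labelled Atmp38dKO. Probe 2 read 181 on WT, 163.8 on AtmsKO and 120.7 on the array labelled Atmp38dKO, and probe 3 read 1390, 1262 and 1629. Hence the AtmsKO array was lowest at probes 1 and 3, whereas the array labelled Atmp38dKO was lowest at probe 2. In the AtmsKO array all 3 probes were below WT, by -0.40 ± 0.20, -0.07 ± 0.20 and -0.06 ± 0.20. In the array labelled Atmp38dKO the differences from WT were -0.26 ± 0.20, -0.80 ± 0.20 and 0.01 ± 0.20. Probe 2 was therefore at a fold of 0.575 of WT, while probe 3, which lies 3.21 kb further along and names the same number of transcripts, was level with WT. Probe 2 also differed between both mutant arrays, by -0.73 ± 0.20. It was the only core factor probe of at least 100 units outside the 5th to 95th percentile of probes of like signal in any of the comparisons, and it did not reach 2-fold.

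MECOM is the locus of EVI1 and of the longer MDS1-EVI1 protein, zinc finger regulators that HSC self-renewal requires, and MDS1 alone is made from its upstream start. RefSeq gives 2 starts 496.6 kb apart. The promoters are shown for the same reason as those of Runx1.
Mecom upstream start, GRCm38.p6 chr3:30509760-30510009, - strand: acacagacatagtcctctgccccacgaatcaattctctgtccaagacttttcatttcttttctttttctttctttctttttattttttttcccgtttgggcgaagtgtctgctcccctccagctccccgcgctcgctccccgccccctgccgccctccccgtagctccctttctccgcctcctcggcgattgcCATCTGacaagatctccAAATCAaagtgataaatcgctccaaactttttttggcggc
Mecom downstream start, GRCm38.p6 chr3:30013205-30013454, - strand: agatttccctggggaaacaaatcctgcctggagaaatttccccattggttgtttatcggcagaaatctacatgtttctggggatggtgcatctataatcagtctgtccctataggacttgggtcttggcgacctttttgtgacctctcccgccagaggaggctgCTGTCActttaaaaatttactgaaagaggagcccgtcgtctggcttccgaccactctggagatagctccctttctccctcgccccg
The upstream promoter held 1 match to CAGNTG and 1 to AAATCA, and the downstream promoter 1 match to TGACAG. Probes 1 and 2 of Mecom start 1 base apart (mm9 chr3:30445665-30445724 and chr3:30445664-30445723, minus strand). They agree at 56 of 59 overlapping bases. The stretch with the differences is shown because it is all that sets these probes apart, and capitals mark the differing bases.
Mecom probe 1: caGgtgtgacggacgactttctattCcGag
Mecom probe 2: caAgtgtgacggacgactttctattTcCag
Counted from 1 at the 5′ end of probe 1, with the base of probe 1 first, the differences are G13A, C36T and G38C. Probe 1 read 33.6 units on WT, 25.8 on AtmsKO and 39.3 on the array labelled Atmp38dKO, whereas probe 2 read 6.66, 9.68 and 7.89 units. Relative to WT, probe 1 differed by -0.30 ± 0.23 and 0.01 ± 0.22, and probe 2 by 0.62 ± 0.38 and 0.03 ± 0.38. The near-identical probes thus gave opposite signs on the AtmsKO array and values near 0 on the other.

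Mecom probe 3 (mm9 chr3:30135491-30135550) lies 310.2 kb further along, and names 1 RefSeq transcript. It read 8.99 units on WT, 11.4 on AtmsKO and 27.6 on the array labelled Atmp38dKO. The array labelled Atmp38dKO was higher than WT by 1.40 ± 0.28, a fold of 2.64, and higher than AtmsKO by 0.98 ± 0.27. This was the one 2-fold difference among the core factors, and it was found in a dim probe. The 95th percentile of 11357 probes of 10 to 30 units was 1.31. With the background corrected by normexp in place of the scanner software's method, the same difference was 0.85, and 0.21 when an offset of 50 units was added.

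Probes 4 and 5 of Mecom lie 256.5 kb beyond probe 3 and 2.79 kb apart, and are the brighter probes of the gene. Both have an open reading frame over their length and are shown for their brightness, although probe 4 names no RefSeq transcript and probe 5 names 1.
Mecom probe 4, mm9 chr3:29878979-29879038, - strand: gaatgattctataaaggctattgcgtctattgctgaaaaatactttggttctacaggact
Mecom probe 5, mm9 chr3:29876185-29876244, - strand: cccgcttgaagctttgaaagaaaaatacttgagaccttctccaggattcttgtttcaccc
Probe 4 read 220.8 units on WT, 220.9 on AtmsKO and 183.4 on the array labelled Atmp38dKO. Probe 5 read 180.2, 141.5 and 162.4 units. On the array labelled Atmp38dKO both were below WT, by -0.48 ± 0.20 and -0.37 ± 0.20, that is in the direction opposite to probe 3. On AtmsKO they were at 0.08 ± 0.20 and -0.27 ± 0.20. All these values of probes 4 and 5 lay between the 5th and 95th percentiles of probes of like signal.

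MEIS1 is a homeodomain protein that binds with PBX and HOX partners and restrains oxidative metabolism in HSCs. Probe 1 has an open reading frame over its length.
Meis1 probe 1, mm9 chr11:18911247-18911306, - strand: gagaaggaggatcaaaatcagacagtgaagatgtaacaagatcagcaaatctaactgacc
Meis1 probe 1 read 680.9 units on WT, 651.7 on AtmsKO and 685.3 on the array labelled Atmp38dKO. Probe 4 (mm9 chr11:18780695-18780754), which lies furthest along and names 2 RefSeq transcripts, read 971.3, 1006 and 1106 units. Both were close to WT, at 0.01 ± 0.20 and 0.13 ± 0.20 on AtmsKO and at -0.21 ± 0.20 and -0.03 ± 0.20 on the array labelled Atmp38dKO. Probe 2 (mm9 chr11:18909900-18909959) read 106.3, 119.5 and 139.9 units, and probe 3 (mm9 chr11:18785035-18785094) read 122.6, 87.5 and 106.6 units. Probe 3 was the lowest of the gene relative to WT on both mutant arrays, at -0.41 ± 0.21 and -0.42 ± 0.21, whereas probe 2 was above WT on both, at 0.25 ± 0.21 and 0.18 ± 0.21. Neither probe 2 nor probe 3 names a RefSeq transcript.

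**Figure D2:**
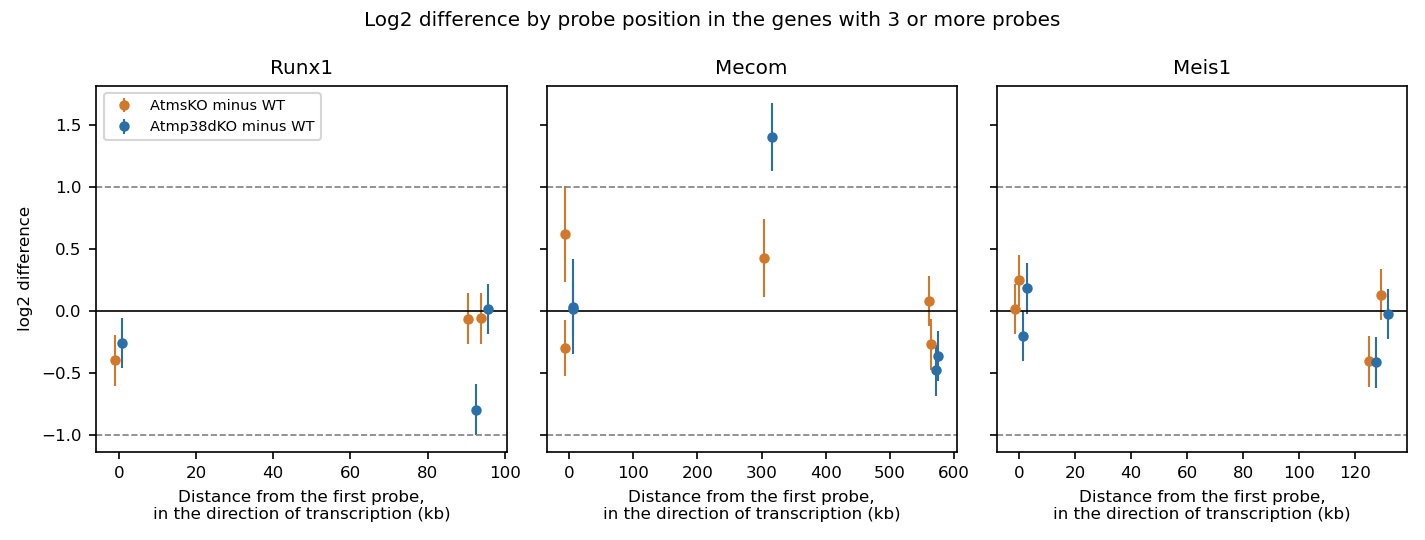
Log2 difference from WT at each probe of Runx1, Mecom and Meis1, by distance from the first probe in the direction of transcription (kb). Points are single probes, set slightly apart sideways, bars are the scanner software's error, and dashed lines mark 2-fold. Only Mecom probe 3, on the array labelled Atmp38dKO, is above the 2-fold line.

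Whether the probes of a gene moved together was asked next. For 4 core factors there were at least 2 probes well above background on both arrays. All probes of a gene had the same direction for 1 of the 4 (Runx1) on AtmsKO relative to WT, where 42.4% of 7820 genes did. For the array labelled Atmp38dKO it was 0 of 4 relative to WT and 2 of 4 (Lmo2 and Meis1) relative to AtmsKO, beside 43.6% and 44.6% of genes. The probes of Runx1 spanned 0.34 on AtmsKO and 0.81 on the array labelled Atmp38dKO. The probes of Meis1 spanned 0.65 and 0.60, and those of Mecom spanned 0.92 and 1.88. The median span over all genes with at least 3 such probes was 0.77 and 0.83. Runx1 and Meis1 were thus below that median span, and Mecom, which has 5 probes, was above it in both comparisons. The upper end of the Mecom span was a dim probe each time. It was probe 2 (0.62) on AtmsKO and probe 3 (1.40) on the array labelled Atmp38dKO.

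**Figure D3:**
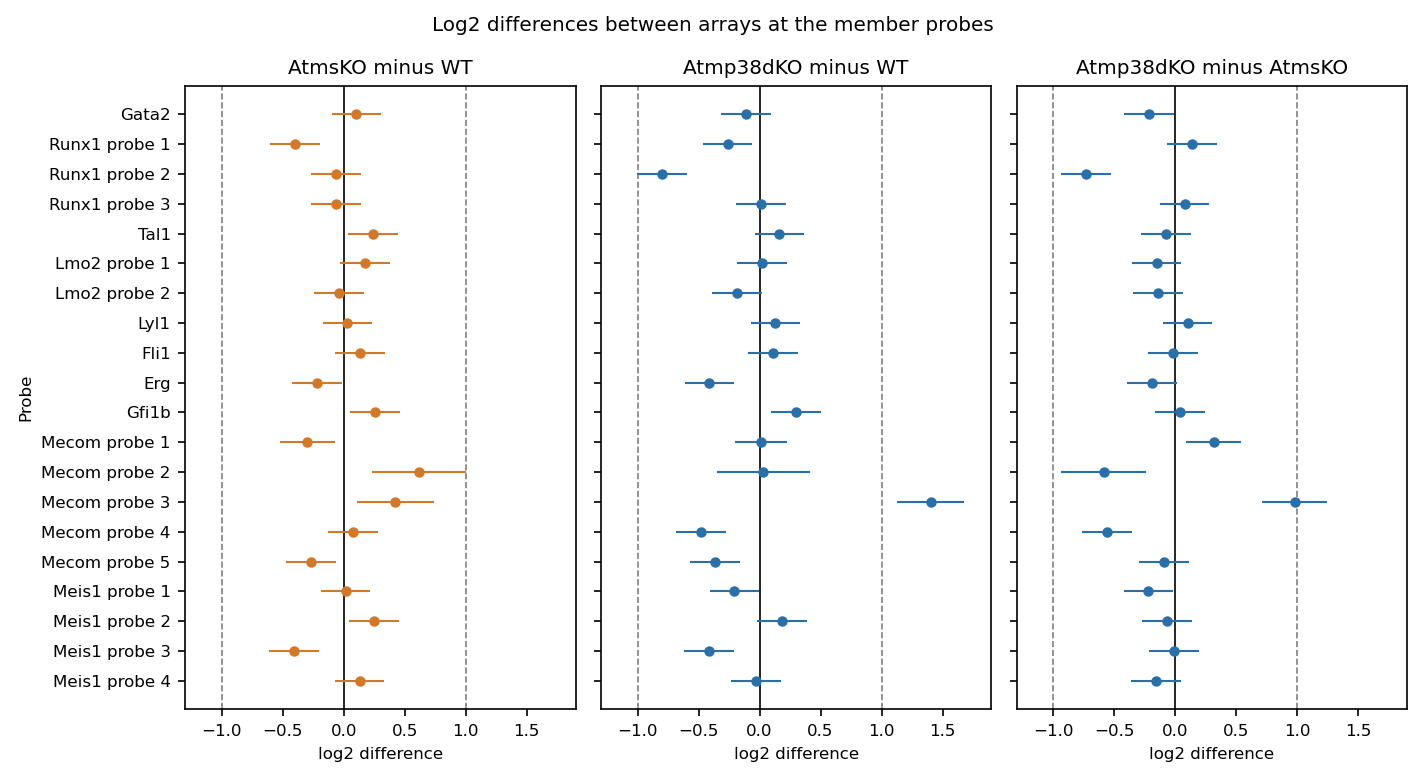
Log2 difference between each pair of arrays at the 20 core factor probes. Points are single probes on single arrays, bars are the scanner software's error, and dashed lines mark 2-fold. Differences run from -0.41 to 0.62 for AtmsKO minus WT, from -0.80 to 1.40 for Atmp38dKO minus WT and from -0.73 to 0.98 for Atmp38dKO minus AtmsKO.

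A lower limit of 1.5-fold was also counted. It was reached by 1 of 20 core factor probes for AtmsKO relative to WT (Mecom probe 2), where 22.8% of all probes reached it. It was reached by 2 for the array labelled Atmp38dKO relative to WT (Mecom probe 3 and Runx1 probe 2), beside 24.5%, and by 3 between both mutant arrays (the same 2 and Mecom probe 2), beside 21.4%. Dim probes vary more, so the 16 core factor probes of at least 100 units on every array were also set against the 12906 probes of that kind. Of these 16, none, 1 and 1 reached 1.5-fold in the 3 comparisons, and it was Runx1 probe 2 both times. Under normexp with an offset of 50 units that probe was at -0.55 and -0.48, short of 1.5-fold. The shares on the array were 5.64%, 7.09% and 6.14%. The median size of the difference, regardless of direction, was 0.13, 0.18 and 0.14 over the 16 probes, and 0.16, 0.17 and 0.17 over all such probes. At 100 units and above, therefore, the core factors differed between arrays about as much as other genes did.

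**Figure D4:**
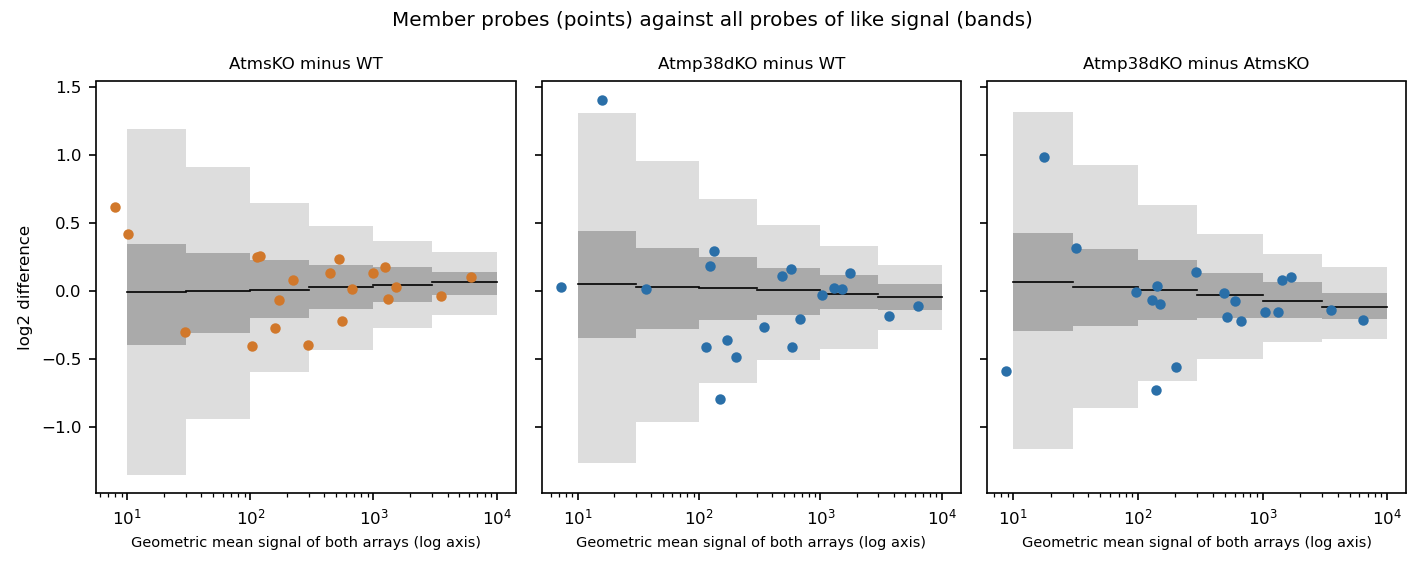
Log2 difference against the geometric mean signal of both arrays (log axis, scanner units). Points are core factor probes. In each range of signal the light band runs from the 5th to the 95th percentile of all probes that rise well above background on either array, the dark band from the 25th to the 75th, and the line is the median. Above 10 units, Mecom probe 3 and Runx1 probe 2 are the points outside the light band for Atmp38dKO minus WT, and there is none for AtmsKO minus WT.

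The promoters of the core factors were compared with all others in sequence. RefSeq promoters were at hand for 8 of the 10 genes, 14 in all, and were missing for Lmo2 and Fli1. Their G+C content ran from 36% to 74%, with a median of 50.6% against 52.4% over 32851 promoters, and their median number of CpGs was 10.5 against 6. Motifs that these proteins are known to bind were counted on both strands in the 250 bases before each start, and overlaps between motifs were allowed. The GATA motif AGATAA was in 2 of 14 core factor promoters (Tal1 and Erg), beside 9.99% of all promoters. The ETS motif CCGGAA was in 3 (Runx1, Lyl1 and Meis1), beside 12.0%. The RUNX motif TGTGGT was in 1 (Meis1), beside 14.0%, and the E-box CAGNTG was in 4 (Runx1, Lyl1, Erg and Mecom), beside 44.8%. The GFI motif AAATCA was in 2 (Gfi1b and Mecom), beside 12.4%, and the MEIS motif TGACAG was in 2 (Erg and Mecom), beside 15.9%. These are matches of letters in short windows, and binding was not measured.

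The genes around the circuit were read at the brightest probe of each. On the array, 3.81% of 29041 genes were at least 2-fold higher and 3.98% lower on AtmsKO relative to WT at that probe. For the array labelled Atmp38dKO the shares were 3.95% and 4.40% of 30647 genes relative to WT, and 3.69% and 3.62% of 30203 genes relative to AtmsKO. The 10 core factors had no such gene in any comparison, with medians of 0.09, -0.0074 and -0.11.

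Partner proteins and cofactors, with which the core factors bind DNA or silence genes, also had none among 22 genes. Their medians were -0.05 and -0.11 relative to WT, beside 0.008 and 0.02 over all genes. On AtmsKO the highest was Pbx2 (0.37), a partner of MEIS1, and the lowest was Cbfa2t3 (-0.54), the ETO2 corepressor of the TAL1 complex, which a second probe also placed below WT. Zfpm1 (0.18), the GATA cofactor FOG1, and Rcor1 (-0.33), the CoREST scaffold used by GFI1B, came next. On the array labelled Atmp38dKO the highest were Ssbp2 (0.47) and Ssbp3 (0.34), which stabilise LDB1 in the complex, and the other Ssbp2 probes ran from -0.30 to 1.89. The lowest were Hoxa9 (-0.61), a partner of MEIS1, and the corepressor Ctbp1 (-0.58). The other Hoxa9 probes were also below WT there, at -0.44 and -0.73, whereas the second Ctbp1 probe was at -0.02.

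Among the family relatives, 15 of 16 genes were measured, and Tal2 was not well above background on any array. Runx3 read 138.5 units on WT, 301.1 on AtmsKO and 276.1 on the array labelled Atmp38dKO. It was the only relative at least 2-fold different on AtmsKO (1.20), and a second Runx3 probe of like brightness gave -0.20. Lmo1 read 10.4, 10.3 and 25.6 units, which made it the only relative at least 2-fold higher on the array labelled Atmp38dKO, by 1.09 from WT and by 1.02 from AtmsKO. Ets1 read 69.5, 95.2 and 56.5 units, with 0.53 on AtmsKO, -0.51 on the array labelled Atmp38dKO and -1.05 between the mutants. A dimmer Ets1 probe gave 0.05 for the last of these. Lmo4 (-0.31, with other probes at -0.41 and 0.09) and Gata3 (-0.23) were lowest on AtmsKO, and Prdm16 (-0.39), the closest relative of Mecom, was next after Ets1 on the array labelled Atmp38dKO. The medians of the relatives were 0.10 and 0.04 relative to WT.

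ID proteins bind E proteins and so withhold them from TAL1 and LYL1. Id1 read 338.6 units on WT, 249.4 on AtmsKO and 153.5 on the array labelled Atmp38dKO. It was lower on both mutant arrays, by -0.36 ± 0.20 on AtmsKO and by -1.36 ± 0.20 on the array labelled Atmp38dKO, a 2-fold difference in the last case only. Id2 was at -0.47 and -0.48, but its second probe gave 0.14 and 0.27. Id3 was at -0.31 and 0.06. Id4 was not well above background on AtmsKO. The list's medians were -0.34 and -0.44 over 4 genes.

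Other regulators of HSCs had 1 gene of 18 past 2-fold. Hoxb5, a homeobox gene used as a marker of LT-HSCs, read 91.4 units on WT, 107.4 on AtmsKO and 34.0 on the array labelled Atmp38dKO, lower there by -1.64 ± 0.21 from WT and by -1.95 ± 0.21 from AtmsKO. Spi1 (-0.61), which encodes PU.1, was next. Zfx (0.65) and Ikzf1 (0.30) were highest on that array. The second Zfx probe was at 0.12 there, and the other Ikzf1 probes ran from -0.92 to 0.65. On AtmsKO the values ran from Bmi1 (-0.54) and Zbtb20 (-0.39) to Hoxb5 (0.31) and Mycn (0.35). The other Bmi1 probe was at 0.29, and the other Zbtb20 probes well above background were at -0.99 and -0.74. The medians were -0.0032 and -0.15.

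Genes described as targets of the core factors were measured for 17 of 18, the exception being Cdh5. On AtmsKO, 2 were at least 2-fold higher. Pf4, a platelet chemokine, read 1020 units on WT, 2366 on AtmsKO and 1536 on the array labelled Atmp38dKO, that is 1.29 ± 0.20 and 0.38 ± 0.20 from WT. Vwf, which marks platelet-biased HSCs, read 102.2, 195.2 and 187.8 units, or 1.01 and 0.66 from WT, whereas its other probes gave 0.31 and -0.48 on AtmsKO. The list of 9 megakaryocyte markers, which holds Pf4, summed to 20.0, 35.4 and 23.6 times the 75th percentile on the 3 arrays, and to 9.97, 10.8 and 10.5 times without it. On the array labelled Atmp38dKO, Trib2 read 78.2 units against 13.8 on WT, higher by 2.29, but its other probe was lower by -1.54. Procr, the endothelial protein C receptor used as an HSC marker, was at -0.50 there, and Pecam1 (-0.48) and Hif1a (-0.44) were the lowest on AtmsKO, where other Hif1a probes gave -0.97 and 0.39. The medians of the targets were -0.01 and 0.0018.

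Between both mutant arrays, the 2-fold differences in these lists were those of Ets1, Lmo1 and Hoxb5 given above and of Trib2, whose probes gave 1.47 and -1.17. The medians there were 0.0093 for the partners, -0.10 for the relatives, -0.17 for the ID proteins, 0.004 for the other regulators and -0.02 for the targets, beside -0.0046 over all genes.

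**Figure D5:**
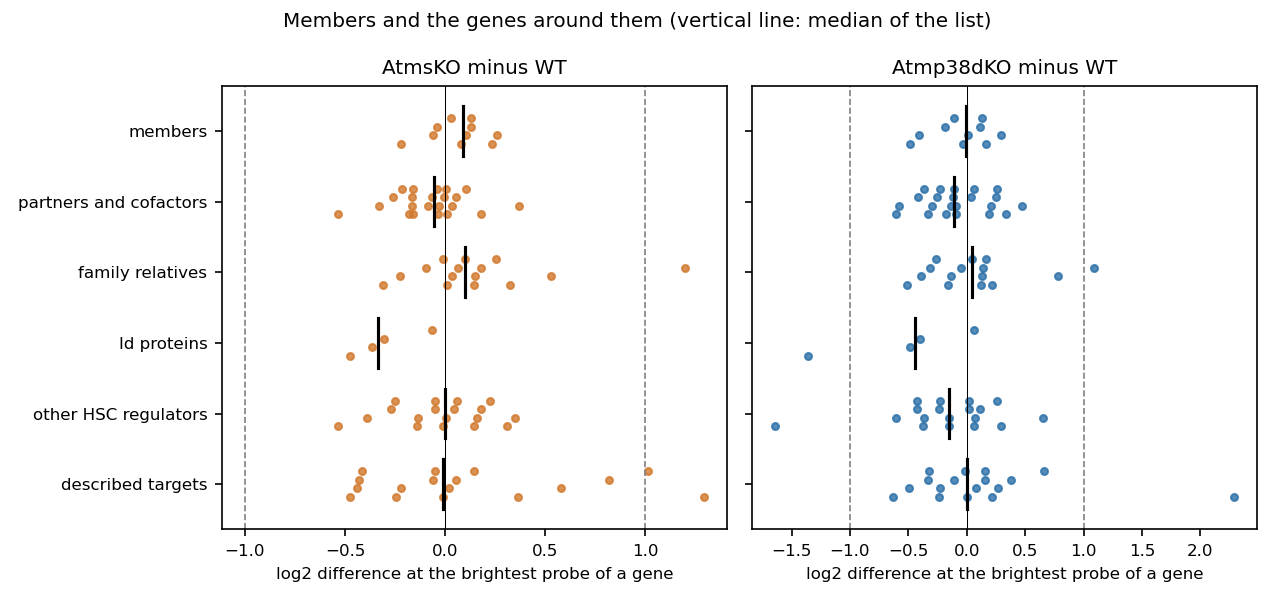
Log2 difference from WT at the brightest probe of each gene, for the core factors (members) and the lists around them. Points are genes that rise well above background on either array, vertical bars are medians and dashed lines mark 2-fold. The core factors lie between -0.22 and 0.26 for AtmsKO and between -0.48 and 0.30 for Atmp38dKO, and Hoxb5, Id1, Lmo1 and Trib2 lie outside the dashed lines for Atmp38dKO.

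Several core factors are also expressed outside HSCs: Gata2 in mast cells, Gfi1b and Tal1 in megakaryocytes and erythroid cells, and Fli1 in megakaryocytes. Marker lists were therefore summed in the same way. LT-HSC markers, 10 of 10 well above background, summed to 74.4, 71.7 and 64.2 times the 75th percentile on the WT, AtmsKO and Atmp38dKO arrays. Without Kit, the brightest, they summed to 48.3, 42.9 and 36.6. On the array labelled Atmp38dKO 8 of the 10 markers were lower than WT, with a median of -0.38. Erythroid markers summed to 17.6, 18.6 and 21.3, most of it Ermap, and to 5.21, 6.82 and 8.51 without it. Of 10 measured, 6 were higher than WT on AtmsKO and 9 on the array labelled Atmp38dKO, with medians of 0.52 and 0.46. At least 2-fold higher on both mutant arrays were Alas2 (1.72 on AtmsKO and 1.80 on the array labelled Atmp38dKO) and Hbb-bt (1.35 and 1.53). Alas2 was dim on WT, at 6.50 units. Car1 was at least 2-fold lower on AtmsKO (-1.05), where its other probe gave 0.27. Mast cell and basophil markers summed to 2.98, 3.03 and 3.48, most of it Tpsb2, and to 0.7738, 0.8055 and 1.015 without it. Well above background were 5, 4 and 7 of 8, beside 73.3%, 68.9% and 77.7% of all probes on these arrays. Ms4a2, the beta chain of the IgE receptor, was at background on every array. Of 7 measured on the array labelled Atmp38dKO, 5 were higher than WT and 2 lower. Granulocyte and monocyte markers summed to 62.5, 66.0 and 65.8, led by Csf1r and S100a9, and to 37.6, 44.6 and 44.6 without Csf1r. B cell markers summed to 6.46, 6.16 and 6.29, and T and NK cell markers to 8.43, 8.79 and 10.5. Endothelial markers summed to 10.7, 12.5 and 10.1 with Cdh5 at background on all arrays. Of the 7 measured on AtmsKO, 4 were higher than WT and 3 lower, with a median of 0.27. At least 2-fold higher were 2, Kdr (5.88 units on WT and 114 on AtmsKO) and Vwf, and the lowest were Emcn (-0.53) and Pecam1 (-0.48). The lowest signal well above background on WT was 5.33 units, and no other Kdr probe was well above background on both arrays. The genes sorted against summed to 19.3, 19.5 and 21.1, most of it Cd34 RNA. What these markers contribute to the core factor values was not tested.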

How the data were processed

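Gene expression was measured on 3 single-colour Agilent arrays, 1 per genotype, on the same slide and scan, and groups were taken from the sample titles. Per the file headers and the submitters' notes, the authors' contractor made the deposited spot intensity values with Agilent Feature Extraction 11.5.1.1, which subtracts background and detrends each array. A deposited table of log2 values by the authors equaled log2 of the processed signal minus the array's 75th percentile within 0.02 for 99.72% to 99.97% of probes, with column medians of -2.18, -2.21 and -2.16 for WT, AtmsKO and Atmp38dKO.

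Here, control and outlier spots (57, 75 and 83) were left out and spots of a probe averaged. Probes with over 50% of their spots flagged well above background were taken as such. Log2 of the processed signal minus the array's 75th percentile was the measure, and signals below background were raised to the lowest signal well above it. This scaling leaves relative levels only. A probe was counted as different at 2-fold or more if well above background on the brighter array. Probe positions are those of the files (mm9). RefSeq names and promoters are of GRCm38.p6, and names were matched by accession for 32994 probes. All 10 core factors were named with every probe. Of each other list, the 2 highest and 2 lowest genes per comparison with WT were named, and every gene past 2-fold, except that single results of some list members are not reported here. The core factors, lists and rules were chosen with earlier results of these data known. Alternatives included normexp (limma 3.58.1, R 4.3.3) with an offset of 0 or 50, quantile normalization and other filters. The counting was tested on simulated data. Python 3.11.15, numpy 2.4.6 and pandas 2.3.3 were used.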

Additional observations from a re-analysis of the deposited data

How the results depend on the processing

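With 1 array per genotype no value has a replicate, so no library could be left out, and the number of arrays limits every value. No paired analysis was possible because the groups hold single arrays and nothing was tested. The count of core factor probes at least 2-fold different for Atmp38dKO against WT was 0 in place of 1 under normexp, without an offset and with an offset of 50 units, where Mecom probe 3 gave 0.85 and 0.21. With that offset Runx1 probe 2 gave -0.55 and -0.48 for Atmp38dKO against WT and AtmsKO, below 1.5-fold. At 1.5-fold the counts were 1, 2 and 3 in place of 0, 1 and 0 for AtmsKO against WT, Atmp38dKO against WT and Atmp38dKO against AtmsKO. The median difference for Atmp38dKO against WT was -0.10 under normexp without an offset, in place of -0.0074. Every other median moved by less than 0.075, the SD of a difference between repeated spots. No 2-fold difference reversed. Over 8 alternatives, 18, 16 and 18 of 20 probes kept their sign, and the others were at 0.073 or less in size. Of 480 values of single probes, 39 moved by more than that SD, and the cause was not tested.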
